A study of Homo sapiens with 6 samples.

Results

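The genes of atypical protein kinase C and of its Par polarity partners were followed on 6 expression arrays of PrEC, an immortalized line of normal human prostate epithelial cells. They were 10 genes: the kinases PRKCI and PRKCZ, the scaffolds PARD3 and PARD3B, the adaptors PARD6A, PARD6B and PARD6G, the substrates LLGL1 and LLGL2, and SQSTM1, which encodes the p62 protein. Each gene was taken from every probe set, that is, every group of probes summarised as 1 value, whose platform annotation gave that symbol alone, and each had 1 such probe set, 10 of 19158 in all. The 3 shPKCi samples came from PrEC cells carrying a hairpin against PKCλ/ι, the protein that PRKCI encodes, and the 3 shNT samples from PrEC cells carrying the hairpin named shNT. All 6 cultures had the same prostate epithelial medium, received no other agent and were taken 48 hours after they were plated. The 3 samples of a line are called biological replicates in the series. Whether a line was 1 clone or a pool of cells is not given in the sources used here. The p-values below measure spread among the samples of a line. An effect of the hairpin and any other difference between the lines cannot be told apart in this design.

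Atypical protein kinases C differ from the other isoforms in that neither diacylglycerol nor calcium activates them. In epithelial cells they bind a PAR6 protein through a domain named PB1 that both proteins carry, and PAR6 with the small GTPase CDC42 and the scaffold PAR3 places the kinase at the apical side and at cell junctions. There the kinase phosphorylates LGL proteins, which keeps them on the basolateral membrane. The p62 protein binds atypical protein kinase C through the same kind of PB1 domain, is a receptor of selective autophagy, and binds KEAP1, the inhibitor of the antioxidant factor NRF2.

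Both genes of the kinase itself, PRKCI being the target of the hairpin, were lower in shPKCi (limma, adjusted p under 0.05). None of its 8 partner genes passed in the main fit, and the calls of some depended on the setting, as given below. Of the 10 genes 20.0% passed, close to the 17.6% of all probe sets. So few genes cannot show that the partners differ from the array. PRKCI was 2.06-fold lower and PRKCZ 1.46-fold lower. PARD6B and PARD6G, which encode alternative forms of the same adaptor, lay in opposite directions by about the same small amount, without reaching the threshold. PARD3, PARD3B, PARD6A, LLGL1, LLGL2 and SQSTM1 had log2 fold changes between -0.24 and 0.19, and none of them passed.

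Intensities are on the linear scale of the deposited table, and tests used their log2 values. The array of shNT replicate 2 stood apart from the other 5: its correlation with them over probe sets ran from 0.973 to 0.988, and limma gave it an array weight of 0.24, against 0.89 to 2.3 for the others. Among the 6 of these genes above the median signal of the array it held the lowest shNT value in 5, and among the 4 dimmer ones the highest in 3. Over all probe sets above the median signal it was the lowest of the shNT arrays in 49.8%, and over the rest it was the highest in 55.9%. Values without that array are therefore given for each of the 10 genes and for several of the partner genes.

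PRKCI encodes the atypical isoform PKCλ/ι and is the gene the hairpin targets. Its intensities were 800, 810 and 754 in shPKCi replicates 1 to 3, against 1635, 1428 and 1843 in shNT replicates 1 to 3. All 3 shPKCi arrays lay below all 3 shNT arrays, and the shNT arrays were the more spread. The mean log2 value was 9.62 ± 0.06 in shPKCi and 10.67 ± 0.18 in shNT (SD, n = 3 each). The log2 fold change was -1.05 (95% interval -1.30 to -0.79, limma adjusted p = 0.000415), so that 48.4% of the shNT level remained. PRKCI was thus among the 1.27% of all probe sets that passed and were at least 2-fold lower. Without shNT replicate 2 it was -1.14 (adjusted p = 0.000242). The RefSeq gene table lists 1 pseudogene of PRKCI, PRKCIP1, and which transcripts the probe set can bind beyond its gene was not tested. The kinase protein was not measured.

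PRKCZ encodes PKCζ, the other atypical isoform. Its intensities were 101, 103 and 108 in shPKCi, against 153, 148 and 152 in shNT. The groups were well apart and each was tight: the mean log2 value was 6.70 ± 0.05 in shPKCi and 7.24 ± 0.02 in shNT (SD, n = 3 each). The log2 fold change was -0.54 (95% interval -0.74 to -0.34, limma adjusted p = 0.0032), or 68.7% of the shNT level. It was -0.56 without shNT replicate 2 (adjusted p = 0.00303), and it passed in all 6 fits that left out 1 array, with adjusted p up to 0.0221. Whether the hairpin can match the PRKCZ transcript was not tested, as the hairpin sequence is not given in the sources used here. Which other transcripts the PRKCZ probe set can bind was not tested either.

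The size of the log2 fold change was greater for PRKCI than for PRKCZ. The log2 value of PRKCI minus that of PRKCZ on the same array was 2.99, 2.97 and 2.81 in shPKCi, against 3.42, 3.27 and 3.60 in shNT. Those differences mix the response of separate probe sets, so their size in a group cannot be read. Their change between groups can depend on that response too, as PRKCZ was much the dimmer. It does not by itself show that the RNA of PRKCI fell more. The change was -0.50, and the groups did not overlap. An exact two-sided permutation test gave p = 0.1. That is the smallest p this test can give with 3 arrays against 3, so it cannot fall below 0.05 whatever the size of the difference.

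**Figure D1:**
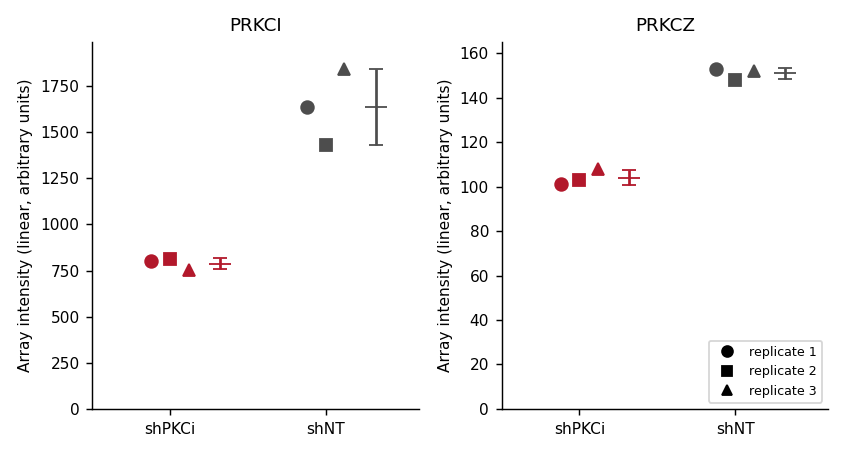
Array intensity (linear, arbitrary units, axis from 0) of PRKCI on the left and PRKCZ on the right. Each symbol is 1 array, and the bars give the mean and SD of the 3 arrays of a group. In both panels the 3 shPKCi arrays lie below the 3 shNT arrays, with means of 788 and 1635 for PRKCI and of 104 and 151 for PRKCZ.

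The DNA around the start sites of PRKCI and PRKCZ, the 2 of these genes that fell past the threshold, is shown here. PRKCI is the target of the hairpin, and shared control of the 2 genes was not tested. The windows run from 250 bases before to 50 after a RefSeq start on GRCh38.p14 and were read 5′ to 3′ on the plus strand, at chr3:170222174-170222473 for PRKCI and chr1:2050161-2050460 for the most upstream of 4 listed starts of PRKCZ. In the RefSeq gene table PRKCZ begins further upstream, at chr1:2048504, for which no window was listed. The array does not tell which start the PRKCZ transcripts used. Capitals mark matches, on either strand, to the GC box GGGCGG or the ETS core CCGGAA.
PRKCI: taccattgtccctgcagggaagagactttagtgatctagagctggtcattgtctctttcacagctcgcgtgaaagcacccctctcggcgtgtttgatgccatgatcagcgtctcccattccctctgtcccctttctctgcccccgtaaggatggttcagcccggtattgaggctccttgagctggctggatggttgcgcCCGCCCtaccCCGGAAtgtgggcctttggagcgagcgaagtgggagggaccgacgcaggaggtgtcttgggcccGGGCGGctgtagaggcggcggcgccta
PRKCZ: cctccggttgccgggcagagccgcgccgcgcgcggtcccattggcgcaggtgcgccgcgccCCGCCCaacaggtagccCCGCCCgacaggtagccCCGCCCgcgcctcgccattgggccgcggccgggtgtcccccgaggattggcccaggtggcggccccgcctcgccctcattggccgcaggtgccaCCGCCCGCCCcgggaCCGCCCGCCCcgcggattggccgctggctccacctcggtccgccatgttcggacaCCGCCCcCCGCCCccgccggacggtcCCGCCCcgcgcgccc
The windows also differ in composition, with 60.7% G and C at PRKCI and 81.0% at this start of PRKCZ, where the median of all promoters was 58.7%. The PRKCI window held 2 matches to the GC box and 1 to the ETS core. The PRKCZ window held 10 matches to the GC box, of which several overlap, and 0 to the ETS core. The windows at the other 3 starts of PRKCZ held 1, 0 and 0 GC box matches, at 63.3%, 68.3% and 68.3% G and C, so the count belongs to this window and not to the gene. Of 35116 promoter windows of 300 bases, 45% held a GC box match and 17.2% an ETS core match. Neither window held the core ACGTG of hypoxia elements (in 21.4% of all windows), the AP-1 motif TGANTCA (7.71%) or the antioxidant element TGACNNNGC (13.3%). Such matches describe letters only. Of the 10 genes, 7 had a promoter entry in the table. PARD3, PARD6B and LLGL2 had none.

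Of the 10 probe sets, 2 fell and 0 rose at an adjusted p under 0.05 (limma). Over all 19158 probe sets, 8.53% were called lower, 9.03% higher and 17.6% in either direction. The 20.0% of these genes that passed was thus close to the share of the whole array, and PRKCI, as the target of the hairpin, was 1 of the 2. Of the other 9 genes, 1 passed. The groups did not overlap in 5 of the 10 (2 higher, 3 lower), where 35.3% of all probe sets showed this, 17.8% higher and 17.5% lower. The median log2 fold change of the 10 was -0.10, and that of all probe sets -0.02. At an unadjusted p under 0.05 there were 4 of 10, against 29.2% of all probe sets. Without shNT replicate 2, PARD6G joined PRKCI and PRKCZ, so that 3 fell and 0 rose, where 20.2% of all probe sets were called and 10.2% were called lower.

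**Figure D2:**
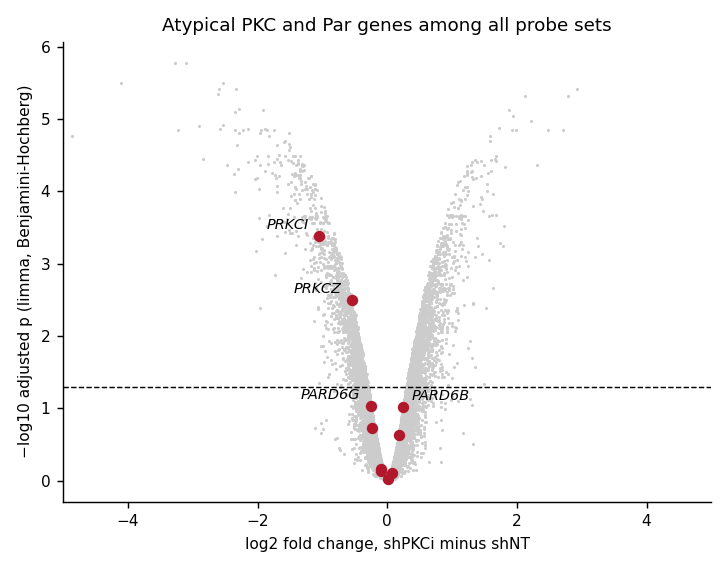
The log2 fold change of shPKCi minus shNT (x axis) and −log10 of the limma adjusted p (y axis) of all 19158 probe sets in grey and of the 10 atypical PKC and Par genes in red. The dashed line marks an adjusted p of 0.05, and PRKCI and PRKCZ lie above it while the other 8 lie below.

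The PAR6 adaptors link the kinase to CDC42 through their own PB1 and semi-CRIB domains. PARD6B had intensities of 604, 611 and 596 in shPKCi, against 512, 513 and 510 in shNT. Every shPKCi array lay above every shNT array, and the spread within each group was small, with an SD of 0.02 in shPKCi and 0.0037 in shNT on the log2 scale (n = 3 each). The log2 fold change of 0.24 (95% interval 0.04 to 0.43) had an unadjusted p of 0.0219 and a limma adjusted p of 0.0954. limma shares variance among probe sets, so that the standard error of 0.09 was wider than the spread of these 6 values alone.

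PARD6G showed the opposite order. Its intensities were 72.6, 72.5 and 71.4 in shPKCi, against 92.6, 82.5 and 84.1 in shNT. The shPKCi arrays lay together below all shNT arrays. Its log2 fold change was -0.26 (95% interval -0.47 to -0.05, limma adjusted p = 0.0936). PARD6A, the remaining paralogue, was dim at 39.6, 41.6 and 39.3 in shPKCi and 37.0, 44.8 and 33.9 in shNT, with groups that overlapped and a log2 fold change of 0.07 (95% interval -0.20 to 0.34, adjusted p = 0.771). With its highest shNT array, replicate 2, left out, it lay at 0.18 (adjusted p = 0.196).

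PARD6B and PARD6G sat near the threshold, and their calls depended on the setting. Without shNT replicate 2, PARD6G had a log2 fold change of -0.29 and an adjusted p of 0.04998, and PARD6B had 0.24 and 0.0731. With array weights both passed, at 0.0281 for PARD6G and 0.0385 for PARD6B, and so did PARD3, at 0.033; under those weights 24.3% of all probe sets were called. Among probe sets above the median signal both passed as well, at 0.0376 for PARD6G and 0.0354 for PARD6B. Under that filter 3588 of all 9579 probe sets were called. PARD6B but not PARD6G also passed with a trended, robust variance in limma (adjusted p = 0.0487). The same held with 16 added to each intensity before the log2 (adjusted p = 0.0265).

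PAR3 proteins are scaffolds that gather PAR6 and the kinase at junctions. PARD3 had intensities of 535, 446 and 505 in shPKCi, against 631, 534 and 590 in shNT. The highest shPKCi array reached the lowest shNT array, which was shNT replicate 2, so the groups touched. Its log2 fold change was -0.24 (95% interval -0.49 to 0.01, limma adjusted p = 0.189), and -0.31 without that array (adjusted p = 0.079). PARD3B, a paralogue of PARD3, had intensities of 28.9, 32.1 and 34.9 in shPKCi and 28.5, 31.5 and 35.1 in shNT. Those 2 sets of values covered almost the same range, and the log2 fold change was 0.01 (95% interval -0.25 to 0.28, adjusted p = 0.957), as it was without shNT replicate 2 (adjusted p = 0.962).

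LLGL1 and LLGL2 encode the mammalian LGL proteins. LLGL1 had intensities of 51.9, 54.2 and 59.6 in shPKCi, against 50.9, 66.9 and 59.8 in shNT. LLGL2 had 39.0, 33.1 and 32.5 in shPKCi, against 30.0, 42.3 and 40.5 in shNT. Groups overlapped in both genes, whose shNT arrays were the more spread (SD 0.20 and 0.27 on the log2 scale). The log2 fold changes were -0.09 for LLGL1 (95% interval -0.37 to 0.18) and -0.10 for LLGL2 (95% interval -0.43 to 0.23), with limma adjusted p of 0.684 and 0.733. Without shNT replicate 2, which held the highest value of each, both rounded to 0.00 (adjusted p = 0.996 and 0.99). Both were below the median signal of the array, as were PARD3B and PARD6A. All 10 genes lay above the lower quartile, and with no detection calls a dim signal cannot be told from background.

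SQSTM1 had intensities of 253, 270 and 264 in shPKCi, against 233, 217 and 242 in shNT. All shPKCi arrays were the higher, by a gap of 0.06 on the log2 scale. The mean log2 value was 8.04 ± 0.05 in shPKCi and 7.85 ± 0.08 in shNT (SD, n = 3 each), and the log2 fold change of 0.19 (95% interval -0.03 to 0.40) did not pass (limma adjusted p = 0.233). Without shNT replicate 2 it was 0.14 (adjusted p = 0.297), and it did not pass in any of the 20 other settings tried. RefSeq lists a pseudogene of SQSTM1 and one of PARD6B, and their part in these signals was not tested.

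**Figure D3:**
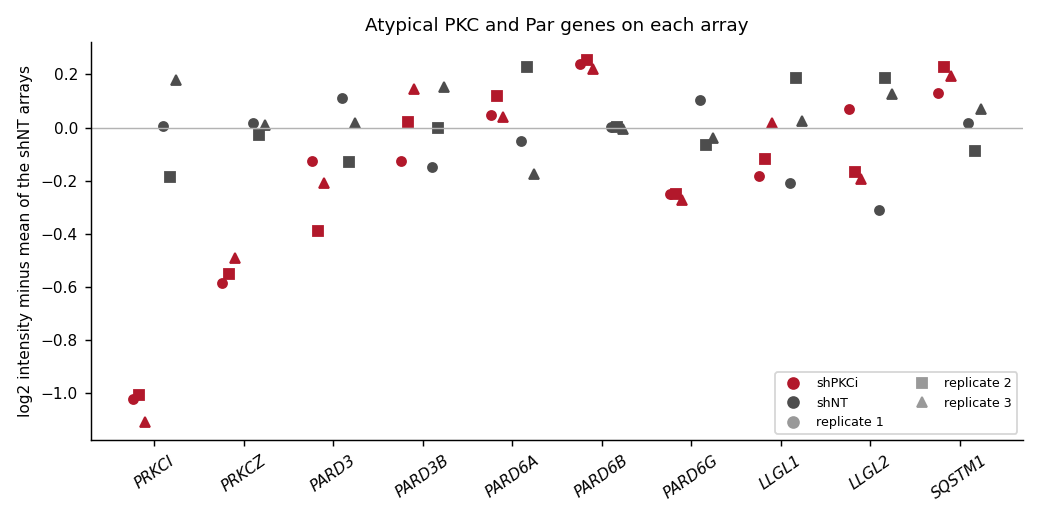
The log2 intensity of each atypical PKC and Par gene on each array, minus the mean of the 3 shNT arrays of that gene. Red symbols are shPKCi arrays and grey symbols shNT arrays, with 1 symbol shape per replicate number. PRKCI, PRKCZ and PARD6G lie lower and PARD6B and SQSTM1 higher in all 3 shPKCi arrays, and the groups of the other 5 genes meet or overlap.

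**Figure D4:**
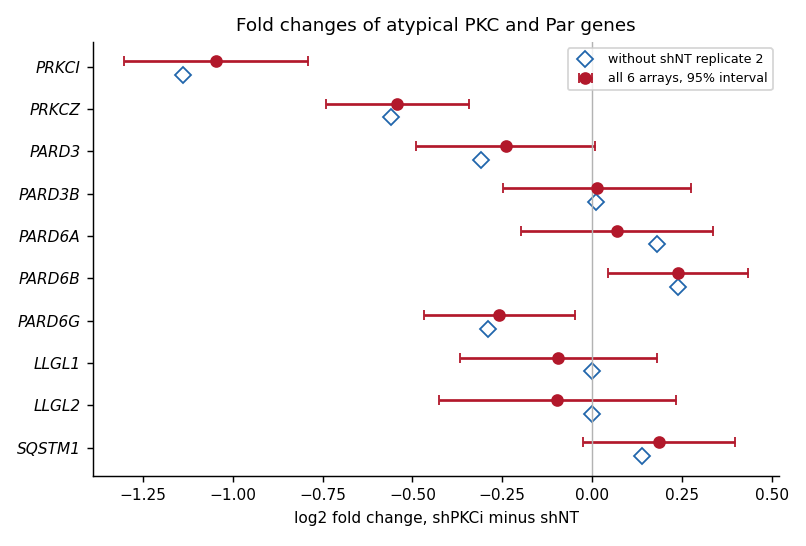
The log2 fold change of shPKCi minus shNT of the 10 genes, with 95% limma intervals from all 6 arrays (red) and the value without shNT replicate 2 (blue diamonds). Intervals of PRKCI, PRKCZ, PARD6B and PARD6G exclude 0 before adjustment for the number of probe sets, and the diamonds stay within the intervals.

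Other genes of the polarity network and of the p62 pathway were read from 8 lists, of which 77 of 84 places had a measured gene and 7 were not analysed here. Together they held 76 genes and 81 probe sets. Of those probe sets, 4 rose and 12 fell (limma adjusted p under 0.05), or 4.94% and 14.8%, where the whole array had 9.03% and 8.53%. Their median log2 fold change was -0.01, against -0.02 for all. The lists were chosen with earlier results of these data known, so these shares do not test the lists. Of the 81 probe sets, 62 lay above the median signal, so the whole array is an unlike background for them. WWC2, YWHAH and YWHAG were among the genes that rose. Those that fell most were GABARAPL1, AMOT, NECTIN4, MPDZ and MARK4. Leaving out shNT replicate 2 gave 5 that rose and 15 that fell, where 20.2% of all probe sets were called. Leaving out any other single array gave 0 to 4 that rose and 7 to 9 that fell. The fewest calls, 9 in all, came when shPKCi replicate 2 was left out (0 rose, 9 fell) or when shPKCi replicate 3 was (2 rose, 7 fell).

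The Crumbs complex marks the apical membrane, and its PALS1 protein meets the Par complex. Of 9 probe sets of 9 genes, 2 fell and 0 rose, with a median log2 fold change of -0.07. That was 22.2% called, against 17.6% of all probe sets. Both that fell encode large scaffolds with many PDZ domains. MPDZ was 1.61-fold lower, at 7.38 ± 0.11 log2 units in shPKCi and 8.06 ± 0.12 in shNT (SD, n = 3 each; limma adjusted p = 0.00261). PATJ was 1.34-fold lower (adjusted p = 0.0179), and it passed without shNT replicate 2 but not without any other single array (adjusted p from 0.0597 to 0.0716). PALS1, a gene named after its value was seen, lay 0.41 higher in shPKCi on the log2 scale (SE 0.16) and did not pass (adjusted p = 0.118). It lay 0.22 higher when shNT replicate 2 was left out (adjusted p = 0.132).

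Scribble and Dlg proteins hold the basolateral side together with LGL. Of 9 probe sets of 9 genes, DLG4 fell and none rose, or 11.1% called against 17.6% of all probe sets. DLG4 encodes a scaffold best known from synapses and was dim, below the median signal. Its log2 fold change was -0.56 (adjusted p = 0.0341), and among the 6 fits that left out 1 array it passed in 1, that without shPKCi replicate 1. The other 5 gave adjusted p from 0.0527 to 0.118. The median of the list was -0.08, with values from -0.56 to 0.08.

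The Par-1 kinases, their activator kinase STK11 and the 14-3-3 proteins also act in cell polarity. Of 18 probe sets of 16 genes, 2 rose and 1 fell, or 16.7% called against 17.6% of all probe sets. MARK4, a Par-1 kinase gene, was 1.57-fold lower (6.76 ± 0.03 in shPKCi and 7.41 ± 0.14 in shNT, SD, n = 3 each; adjusted p = 0.00256). The 14-3-3 genes YWHAH and YWHAG rose by 0.44 and 0.43 (adjusted p = 0.0109 and 0.012). For YWHAG, leaving out shPKCi replicate 2 gave an adjusted p of 0.0607, leaving out shPKCi replicate 3 gave 0.0522, and quantile normalization between arrays gave 0.0653. YWHAH had an adjusted p of 0.05 without shPKCi replicate 2, just short of the threshold.

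Junctional adhesion molecules and nectins are cell surface receptors, several of which bind PAR3. Of 6 probe sets of 6 genes, 2 fell and none rose, or 33.3% called against 17.6% of all probe sets. NECTIN4 was 1.79-fold lower, at 5.86 ± 0.16 in shPKCi and 6.70 ± 0.17 in shNT (SD, n = 3 each; limma adjusted p = 0.00196). NECTIN1 was 1.41-fold lower, at 7.25 ± 0.06 in shPKCi and 7.75 ± 0.10 in shNT (adjusted p = 0.00741). Both passed in all 6 fits that left out 1 array.

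Among regulators and substrates of the kinase, 1 of 9 probe sets rose and 1 fell, or 22.2% called against 17.6% of all. AMOT, which encodes angiomotin, a junction protein of the Hippo pathway, was 2.13-fold lower. Its log2 values were 5.85, 5.90 and 5.75 in shPKCi, against 6.97, 6.75 and 7.04 in shNT (adjusted p = 0.00024), and it passed in every fit that left out 1 array. WWC2 rose by 0.55 (adjusted p = 0.0173). It is a paralogue of WWC1, whose product KIBRA binds and inhibits atypical protein kinase C. WWC2 passed without shNT replicate 2 or shNT replicate 3 but not without any other single array (adjusted p from 0.0533 to 0.0696).

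PB1 domain proteins other than the kinases, PAR6 and p62 gave 1 fall in 6 probe sets (16.7% called, against 17.6% of all). It was NBR1, whose product is an autophagy receptor that binds p62. NBR1 fell by 0.49 on the log2 scale, with mean log2 values of 7.67 ± 0.10 in shPKCi and 8.15 ± 0.18 in shNT (SD, n = 3 each; limma adjusted p = 0.0197). It passed without shNT replicate 2 and without shPKCi replicate 2, and had an adjusted p from 0.0655 to 0.0772 without any other single array.

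Partners of p62 and autophagy receptors fell in 4 of 17 probe sets and rose in none, with a median log2 fold change of -0.15. That was 23.5% called, against 17.6% of all probe sets. GABARAPL1, which encodes a protein of the ATG8 family that anchors receptors to autophagosomes, was 2.25-fold lower. Its log2 values were 5.29, 5.72 and 5.93 in shPKCi, against 6.77, 6.77 and 6.90 in shNT (limma adjusted p = 0.00108). The groups lay far apart, and shPKCi was the more spread. The receptor genes OPTN and CALCOCO2 fell by 0.56 and 0.46 (adjusted p = 0.00414 and 0.0203), beside NBR1. CALCOCO2 passed without shNT replicate 2 but not without any other single array (adjusted p from 0.0619 to 0.0751). The list held 2 falls without shPKCi replicate 1, shPKCi replicate 3, shNT replicate 1 or shNT replicate 3. It held 1 rise and 5 falls without shNT replicate 2, where 20.2% of all probe sets were called. KEAP1 and NFE2L2, which encode the KEAP1 and NRF2 proteins, did not pass, at 0.22 (adjusted p = 0.206) and -0.15 (adjusted p = 0.432) on the log2 scale. NFE2L2 was at -0.26 with shNT replicate 2 left out (adjusted p = 0.0742). Both were named after their values were seen.

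**Figure D5:**
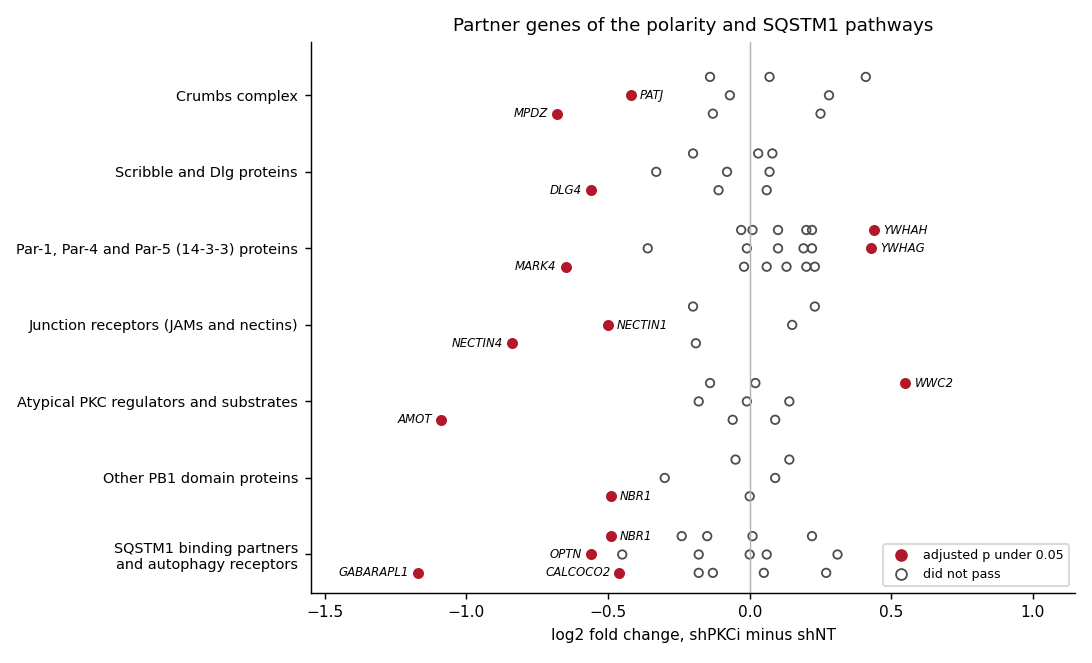
The log2 fold change of shPKCi minus shNT (x axis) of each probe set of the partner lists described one by one in the text (y axis). Filled red points passed the test (limma adjusted p under 0.05) and are named, and open points did not pass. NBR1 stands in 2 lists. The points that passed and lie higher in shPKCi are YWHAH, YWHAG and WWC2, and the others that passed lie lower.

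The pattern of PRKCI over the 6 arrays was matched most closely by genes that were also about 2-fold lower. Likeness was the root mean square difference between the centred log2 values of a probe set and those of PRKCI, whose median over 19148 other probe sets was 0.551. DSC3, which encodes a desmosomal cadherin, was nearest at 0.039, followed by AMOT at 0.041, SH3BGRL at 0.069, MALL at 0.070 and FAP at 0.074. With 6 arrays in 2 groups, the measure mainly reads the size of the difference between lines. The log2 fold changes were -1.02 for DSC3, -1.09 for AMOT, -0.99 for SH3BGRL, -1.14 for MALL and -1.05 for FAP.

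The cells carried markers of epithelium, and several of these differed between the lines. The epithelial genes CDH1, EPCAM, KRT8 and KRT18 and the basal genes KRT5, KRT14, CDH3, ITGB4 and ITGA6 lay above the median signal in both lines' joint mean. The basal gene KRT15 lay below it, as did the luminal prostate genes KLK2, KLK3 and ACP3. Of 6 epithelial probe sets, 2 rose, both of EPCAM, and none fell (limma adjusted p under 0.05). List means on the log2 scale were 10.64 to 10.68 in shPKCi and 10.32 to 10.39 in shNT. CDH1 lay lower in every shPKCi array, at a log2 fold change of -0.29 that did not pass (limma adjusted p = 0.0601). Without shNT replicate 2, 5 of the 6 rose and 1, CDH1, fell, where 20.2% of all probe sets were called. Of 6 basal probe sets, 4 fell (KRT14, KRT15, CDH3 and ITGB4), with list means of 9.29 to 9.36 in shPKCi and 9.66 to 9.69 in shNT. KRT5, at -0.27 (limma adjusted p = 0.07), and ITGA6, at 0.06 (adjusted p = 0.789), did not pass. Over all probe sets 8.53% were called lower, 9.03% higher and 17.6% in either direction. Of 3 luminal probe sets ACP3 fell, and of 7 fibroblast and mesenchymal ones COL1A1 fell (list means of 5.28 to 5.48 in shPKCi and 5.41 to 5.64 in shNT). CDH3 and ACP3 passed in all 6 fits that left out 1 array, and each other marker that changed failed in at least 2 of them. The fibroblast genes DCN, LUM and PDGFRA and the blood and endothelial genes PTPRC, CD3E, VWF, CDH5 and PECAM1 were all under the lower quartile of signal. Of the same lists, VIM and COL1A1 lay above the median signal, and CDH2, COL1A2 and CD14 between the lower quartile and the median. Of 7 endothelial and blood probe sets 0 passed. In such bulk RNA, fewer cells of a type and less RNA per cell cannot be told apart, and the part of these marker shifts in the changes of the polarity genes was not tested.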

How the data were processed

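Total RNA of 6 PrEC samples was hybridised to 1 array each, with biotin label, per the labels' protocols. The authors deposited 1 linear intensity per array for each of 32321 probe sets. The submitters' processing notes name RMA, a method of background correction, quantile normalization and summarising of probes. Its version is not given in the sources used here. The output of RMA is on the log2 scale, so a later conversion to linear ones was inferred from the deposited intensities. The deposited arrays were not alike: shNT replicate 2 had a median intensity of 48.6, against 44.9 to 45.7 for the others. Its log2 values had an interquartile range of 2.82, against 2.98 to 3. No further normalization was applied in the main fit. With quantile normalization between arrays PRKCI was at -1.15, and PARD3 was at -0.33 (limma adjusted p = 0.0505). Array signal compresses differences of dim and bright probe sets, so that folds there can be understated, and 3 arrays a group limit the precision.

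Intensities were log2-transformed. The platform annotation gave 1 gene symbol to 19158 probe sets (18404 genes), several to 1388 and listed none for 11775. All 19158 were fitted with limma 3.58.1 (lmFit and eBayes, R 4.3.3), 6 arrays in 1 fit without covariate, and p-values were adjusted by Benjamini-Hochberg at 0.05. The median standard error was 0.12 with 5.03 prior degrees of freedom. Intervals are 95% limma intervals. The fit was tested on simulated data. The members and lists were chosen with earlier results of these data known. The text names all 10 genes, of each partner list up to 4 genes past the threshold with the smallest adjusted p, the 5 nearest to PRKCI and the cell markers. Other genes were named after their values were seen. In 20 alternatives, 1 choice was changed at a time: a replicate block, 1 array left out in turn, 3 further normalizations, 2 filters on dim probe sets, 1 value per gene in 2 ways, all rows tested, 2 variance models, 2 stricter thresholds and a pseudocount of 16. Promoter sequences came from RefSeq (GRCh38.p14). Amino acid sequences were not used here. Single results of 1 partner list are not reported here, and its probe sets stand only in the joint counts.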

Additional observations from a re-analysis of the deposited data

How the results depend on the processing

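The number of probe sets called over the array was 3364 and ran from 1968 to 3862 when 1 array was left out, being 2050 without shPKCi replicate 1 and 1968 without shPKCi replicate 2. With an adjusted p under 0.01 it was 1700, and with treat against a fold of 1.5 it was 268. Of the 10 atypical PKC and Par probe sets, 2 were called, and 2 to 3 without 1 array. Among those above the median signal 4 of 6 were called, where 3588 of all 9579 such probe sets were. There were 5 with array weights, where 24.3% of all probe sets were called, and 0 with treat. PRKCI, with its log2 fold change still -1.05, had an adjusted p of 0.0859 with treat. In the other 19 settings PRKCI passed, at -1.15 to -0.96. Of the 81 partner probe sets 16 were called, 9 to 20 without 1 array, 7 at an adjusted p under 0.01 and 1 with treat. Centring each array on its median gave 1796 probe sets higher and 1361 lower over the array, against 1730 and 1634. PARD3B, at 0.01, ran from -0.06 to 0.09 when 1 array was left out, and PARD6A, at 0.07, from -0.02 to 0.18; neither passed. The change of PRKCI minus PRKCZ stayed between -0.61 and -0.42 in all settings run for it. The causes were not tested. Replicate numbers did not pair the samples: deviations from the group means correlated at 0.107, -0.058 and -0.181 for numbers 1 to 3, and 1 of 6 samples correlated best with its own number. With the replicate block, 2800 probe sets over the array, 2 of the 10 and 16 of the 81 were called, and PRKCI had an adjusted p of 0.00146. Genes below the median signal are limited by signal over background, which no detection call shows here.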

Other observations

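The genes next to PRKCI on chromosome 3 were read as well, by a rule added after the data were seen: the 3 nearest measured protein-coding genes on each side in the RefSeq order. CLDN11, which encodes a claudin of tight junctions, was the second gene after PRKCI and rose. Its mean log2 value was 8.37 ± 0.06 in shPKCi and 7.24 ± 0.18 in shNT (SD, n = 3 each), with a log2 fold change of 1.13 (limma adjusted p = 0.00024). It passed in each of the 20 alternative settings. The other 5 neighbours, with 7 probe sets, had log2 fold changes between -0.10 and 0.32 and did not pass (adjusted p from 0.241 to 0.868).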
